A study of Mus musculus with 9 samples.

Results

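The genes described here belong to the BMP, activin and Smad pathway, and were followed in the inguinal fat pad of mice, a depot of subcutaneous white adipose tissue. They were chosen by symbol: the ligands Bmp4 and Gdf10, the receptors Bmpr1a and Acvr1c, the inhibitory Smads Smad6 and Smad7, and the target genes Id1, Id2, Id3 and Id4. These are 10 of the 30142 genes that have an array row named for that gene alone. Each of the 10 had 1 such row, and all 10 passed the filter on dim rows. The arrays were Affymetrix Mouse Transcriptome Arrays 1.0, the values are log2 expression as deposited, and a difference of 1 log2 unit is a 2-fold change.

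Groups of 3 arrays each were compared. Knockout mice, which lose the zinc finger factor Zfp423 in adipocytes when doxycycline is given, carried Zfp423loxP/loxP with Adiponectin-rtTA and Tre-CRE and stayed at room temperature. Cold controls, which carried Zfp423+/+ with Adiponectin-rtTA and TRE-Cre, were kept at 6 °C for the last 14 days, a treatment meant to induce heat-producing beige adipocytes. Controls of that same genotype remained at room temperature. Mice of all groups carried both transgenes and were 8 weeks old when doxycycline chow began, which lasted 28 days. The design asked how close fat lacking Zfp423 comes to beige fat in its gene expression. Recombination depends on a transgene named for adiponectin, an adipocyte gene, so other cells of the fat pad may keep Zfp423. Nothing in the labels states that replicate arrays stand for separate mice, and p-values therefore reflect the spread among these arrays alone, which may be technical. In whole tissue, fewer cells of a type and less RNA per cell cannot be told apart.

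Ligands of the TGF-beta superfamily bind pairs of type I and type II receptor kinases, and the type I receptor phosphorylates Smad proteins, which enter the nucleus with Smad4. BMP receptors signal mainly through Smad1, Smad5 and Smad9, while receptors for activin and TGF-beta signal through Smad2 and Smad3. Smad6 and Smad7 are induced by the pathway and inhibit it, and the Id genes, which encode helix-loop-helix proteins without a DNA-binding region, are classical BMP targets. BMP4 promotes commitment of precursors to the adipocyte lineage, and Acvr1c, also known as ALK7, is an activin receptor-like kinase abundant in adipocytes. Zfp423 can bind Smads and act as a cofactor in BMP signalling.

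The promoters of 8 of the 10 genes were read from the RefSeq promoter table of build GRCm38.p6, all but Id1 and Smad7. The 250 bases before the annotated start are shown for the genes with the largest differences, Id2, Gdf10 and Acvr1c (the first of its 2 starts), and for Id3, a BMP target whose group means differed little. Capitals mark any match, on either strand, to GGCGCC (a GC-rich element that BMP-activated Smads are known to bind), to CAGAC or its complement GTCTG (the Smad box) and to GCACCC or its complement GGGTGC (the half-site described for the rat ortholog of Zfp423). Each sequence runs 5′ to 3′ on the strand of its gene and ends at the base before the start. Id2 lies on the minus strand at chr12:25096093-25096342, Id3 on the plus strand at chr4:136143572-136143821, Gdf10 on the plus strand at chr14:33923337-33923586 and Acvr1c on the minus strand at chr2:58357759-58358008.
Id2: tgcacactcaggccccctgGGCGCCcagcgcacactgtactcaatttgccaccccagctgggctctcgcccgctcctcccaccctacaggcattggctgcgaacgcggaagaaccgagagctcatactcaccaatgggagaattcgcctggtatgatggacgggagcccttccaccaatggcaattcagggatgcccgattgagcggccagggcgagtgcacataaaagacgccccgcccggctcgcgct
Id3: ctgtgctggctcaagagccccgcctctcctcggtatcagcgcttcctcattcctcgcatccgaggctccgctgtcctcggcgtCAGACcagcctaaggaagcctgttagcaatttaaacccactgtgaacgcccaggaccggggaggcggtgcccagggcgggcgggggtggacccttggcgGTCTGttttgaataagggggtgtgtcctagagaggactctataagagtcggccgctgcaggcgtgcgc
Gdf10: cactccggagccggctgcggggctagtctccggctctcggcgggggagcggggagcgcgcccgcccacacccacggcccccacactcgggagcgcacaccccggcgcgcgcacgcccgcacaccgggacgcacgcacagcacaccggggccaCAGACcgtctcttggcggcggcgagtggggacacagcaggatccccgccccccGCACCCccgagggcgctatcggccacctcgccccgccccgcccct
Acvr1c: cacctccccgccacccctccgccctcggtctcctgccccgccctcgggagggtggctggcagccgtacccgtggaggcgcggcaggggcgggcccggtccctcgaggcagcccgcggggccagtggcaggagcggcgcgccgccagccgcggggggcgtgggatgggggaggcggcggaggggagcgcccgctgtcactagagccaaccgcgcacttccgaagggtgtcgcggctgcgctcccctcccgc
The window of Id2 held 1 GGCGCC, beginning 231 bases before the start. Id3 held 1 CAGAC at 167 bases and 1 GTCTG at 68 bases before its start, and Gdf10 held 1 CAGAC at 98 bases and 1 GCACCC at 45 bases. No match was found in the window of Acvr1c, and no matches overlapped in these 4 sequences. Among the others, GGCGCC was present in Id4 and Bmpr1a, GGGTGC was present in Smad6 and Bmpr1a, and the window of Bmp4 held none of the motifs. Such matches are common: of the 32851 promoters in the table, 9.59% held GGCGCC, 42.2% held CAGAC or GTCTG and 13.3% held GCACCC or GGGTGC. The windows of Gdf10 and Acvr1c were rich in G and C, at 78.8% and 79.6%, and those of Id2 and Id3 held 62.8% each, against a median of 52.4% over the table.

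The arrays had near-identical medians, from 5.28 to 5.34. Zfp423 read 7.56, 8.15 and 8.04 in the knockout arrays, 8.83, 8.72 and 8.40 in the cold controls, and 8.74, 8.22 and 8.40 in the controls. Knockout arrays lay below all control arrays, yet the difference of -0.53 ± 0.20 (SE) did not pass (limma adjusted p over all genes = 0.254), and the position of the probes relative to the loxP sites is not known from the sources used here. Most genes had their middle value on the same array of a group: knockout replicate 3 for 74.0%, cold control replicate 2 for 53.1% and control replicate 3 for 67.7% of genes with 3 distinct values. Without these 3 arrays, limma called 0 genes of all 16639 tested in any comparison, with 682, 781 and 965 genes below an unadjusted p of 0.05. Taking out middle arrays widens the spread within groups by construction. The description of cold control replicate 3 carries an altered prefix whose meaning the labels do not give. Adipocyte markers were strongly expressed, with Fabp4 at a mean of 19.91 and Adipoq at 14.88 over all arrays. Of 10 thermogenic markers, 7 passed as higher in knockouts and 7 in cold controls than in controls, against 39 and 226 of all 16639 genes. None of 6 mammary epithelial markers reached the filter.

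None of the 10 pathway genes passed the threshold of an adjusted p under 0.05 in any comparison. Knockout against control had 0 of 10 past the limma threshold, against 0.379% of all genes tested, and 1 of 10 (Acvr1c) at an unadjusted p under 0.05, against 16.3%. Cold control against control had 0 of 10 past it, against 1.56% of all genes, and 0 of 10 at an unadjusted p under 0.05, against 20.4%. Cold control against knockout had 0 of 10 past it, against 2.42% of all genes, and 2 of 10 (Acvr1c and Id2) at an unadjusted p under 0.05, against 26.9%. The F test over the 3 groups had 0 of 10 past it, against 2.68%, with Acvr1c alone at an unadjusted p under 0.05, against 26.6% of all genes. Shares so near the background are no result about these genes as a group. The comparisons against control share the same 3 control arrays. The 95% intervals of the differences were narrow for Id3, Id4, Smad7 and Bmp4 and wide for Gdf10, where knockout minus control ran from -2.20 to 0.41. Id3, Id4, Smad7 and Bmp4 had 1 identical value on 4, 5, 7 and 4 of the 9 arrays. Such ties lower the spread, so these narrow intervals need not mean precise measurement.

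**Figure D1:**
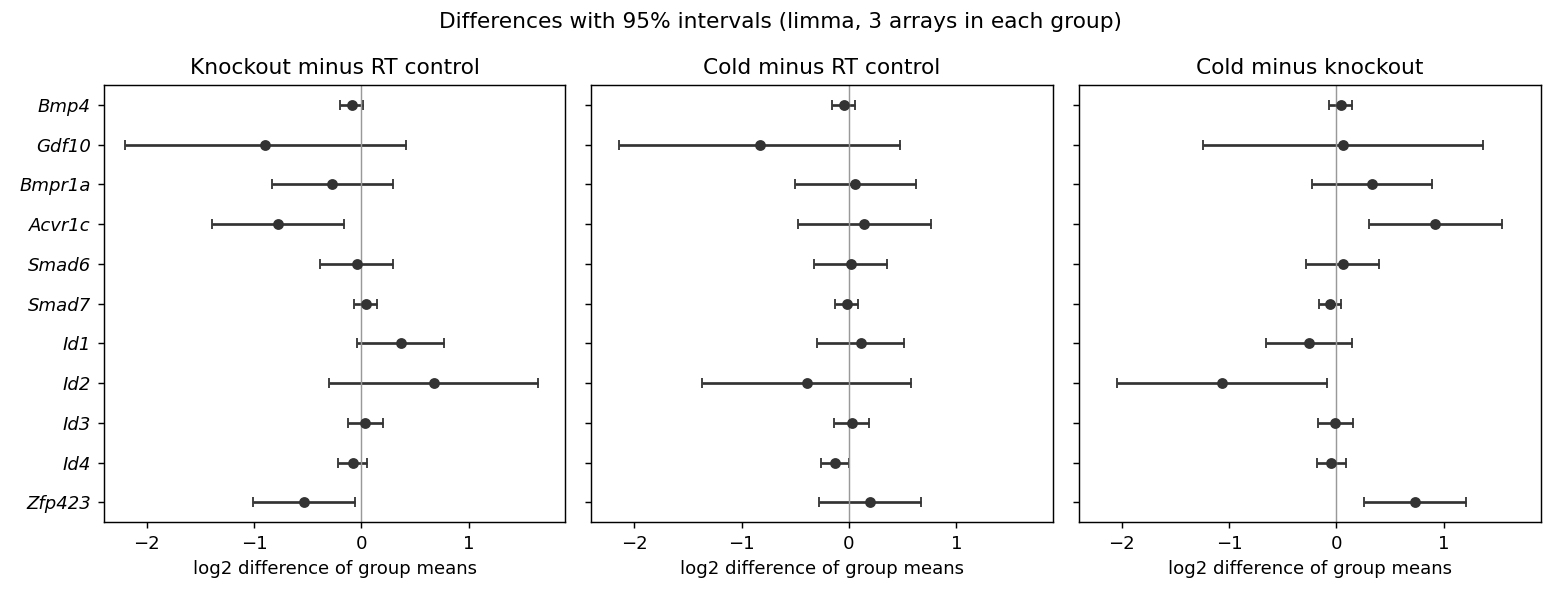
Difference of group means in log2 units (horizontal axis) for the 10 pathway genes and Zfp423, in knockout minus control, cold control minus control and cold control minus knockout. Points are limma estimates and bars 95% intervals (3 arrays in each group). Those of Acvr1c leave out 0 in the first and last panels, at -0.78 and 0.92, and that of Id2 in the last, at -1.07. Those of Zfp423 also leave out 0 in the first and last panels, at -0.53 and 0.73. None of these differences passed after adjustment over all genes.

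Among the ligands, Gdf10, also called BMP3b, gave the largest difference of any of the 10 genes between knockout and control, and the largest spread. It read 9.26, 8.22 and 8.82 in the knockout arrays, 8.72, 8.90 and 8.86 in the cold controls, and 10.80, 8.45 and 9.73 in the controls. The 3 cold arrays were tightly grouped, the controls ran over 2.35 log2 units, and control replicate 2 lay below all cold arrays. Knockout minus control was -0.89 ± 0.56 (SE; 95% interval -2.20 to 0.41; limma adjusted p = 0.472). Cold minus control was -0.83 ± 0.56 (-2.14 to 0.47; limma adjusted p = 0.419). Both estimates were set largely by single control arrays: without control replicate 1 they stood at -0.32 and -0.26, and without control replicate 2 at -1.50 and -1.44. The SD of Gdf10 among the controls, 1.18, exceeded that of 99.8% of all genes tested, while its SD of 0.09 among the cold arrays lay near the middle of all genes, at 56.3%. Cold minus knockout was 0.06 ± 0.56 (-1.25 to 1.37; limma adjusted p = 0.963), an interval that leaves room for differences of over 1 log2 unit either way.

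Bmp4, the ligand linked to adipocyte commitment, hardly varied. It read 6.62, 6.62 and 6.50 in the knockout arrays, 6.62, 6.62 and 6.61 in the cold controls, and 6.70, 6.62 and 6.69 in the controls, with 4 arrays of 9 at one identical value. The groups overlapped, and knockout minus control was -0.09 ± 0.05 (SE; 95% interval -0.20 to 0.02; limma adjusted p = 0.384). The differences involving cold were smaller, at -0.05 ± 0.05 against control and 0.04 ± 0.05 against knockout (limma adjusted p = 0.555 and 0.607).

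Acvr1c gave the lowest p-values of the 10 genes in knockout against control, in cold control against knockout and in the F test, while Id4 did so in cold control against control. It read 10.41, 11.29 and 10.77 in the knockout arrays, 11.89, 11.78 and 11.56 in the cold controls, and 12.02, 11.26 and 11.52 in the controls. Every cold array lay above every knockout array, whereas knockout replicate 2 lay just above control replicate 2, so that knockouts and controls overlapped. Its mean was 10.82 ± 0.44 in knockouts, 11.74 ± 0.17 in cold controls and 11.60 ± 0.38 in controls (SD, n = 3 each). Knockout minus control was -0.78 ± 0.26 (SE; 95% interval -1.40 to -0.16), a ratio of 0.584, which did not pass over all genes (limma adjusted p = 0.213). Cold minus knockout was 0.92 ± 0.26 (0.30 to 1.54), a ratio of 1.89, with a limma adjusted p of 0.0919. Cold minus control was 0.14 ± 0.26 (-0.48 to 0.76; limma adjusted p = 0.79), so these 2 groups, neighbours in the order of the means, were not distinguishable. Two-sided exact permutation of single values gave p = 0.2 for knockout against control and p = 0.1, the smallest possible with 3 against 3, for cold against knockout. Leaving out knockout replicate 2, the knockout array nearest the other groups, raised the cold minus knockout difference to 1.15 and took it past the threshold (limma adjusted p = 0.0297), and leaving out knockout replicate 1 lowered it to 0.72. Passing was common without knockout replicate 2: 2703 of all 16639 genes passed in this comparison, against 402 with all arrays. Without the 3 middle arrays the cold minus knockout difference was 0.87, and knockout minus control was -0.79.

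Bmpr1a, a type I receptor for BMPs also known as ALK3, read 10.03, 10.89 and 10.60 in the knockout arrays, 11.04, 10.82 and 10.65 in the cold controls, and 11.06, 10.51 and 10.76 in the controls. Knockout replicate 1 was the lowest of all 9, and the other knockout arrays lay within the range of the controls. Knockout minus control was -0.27 ± 0.24 (SE; 95% interval -0.83 to 0.29; limma adjusted p = 0.615), cold minus control 0.06 ± 0.24 (-0.50 to 0.62) and cold minus knockout 0.33 ± 0.24 (-0.23 to 0.89). The differences involving cold had limma adjusted p-values of 0.914 and 0.405. Knockout replicate 1 set much of the knockout differences: without it, knockout minus control was -0.03 and cold minus knockout 0.09, and without knockout replicate 2 they were -0.46 and 0.52.

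The inhibitory Smads had group means close to each other. Smad6, which acts mainly on BMP receptors, read 6.60, 7.06 and 6.85 in the knockout arrays, 7.03, 6.86 and 6.80 in the cold controls, and 7.10, 6.69 and 6.85 in the controls. The groups overlapped, with the cold arrays inside the range of the controls, and knockout minus control was -0.04 ± 0.15 (SE; 95% interval -0.38 to 0.30; limma adjusted p = 0.91). Smad7, which acts on receptors of both branches, read 6.33, 6.21 and 6.21 in the knockout arrays, 6.21, 6.14 and 6.21 in the cold controls and 6.21 on each control array. One identical value stood on 7 of its 9 arrays, so only knockout replicate 1 and cold control replicate 2 set its differences, which were 0.04 ± 0.04 for knockout minus control and -0.02 ± 0.04 for cold minus control (0.01 after quantile normalization and 0.02 after median centring). Of all genes tested, 15.3% likewise had 5 or fewer distinct values over the 9 arrays.

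**Figure D2:**
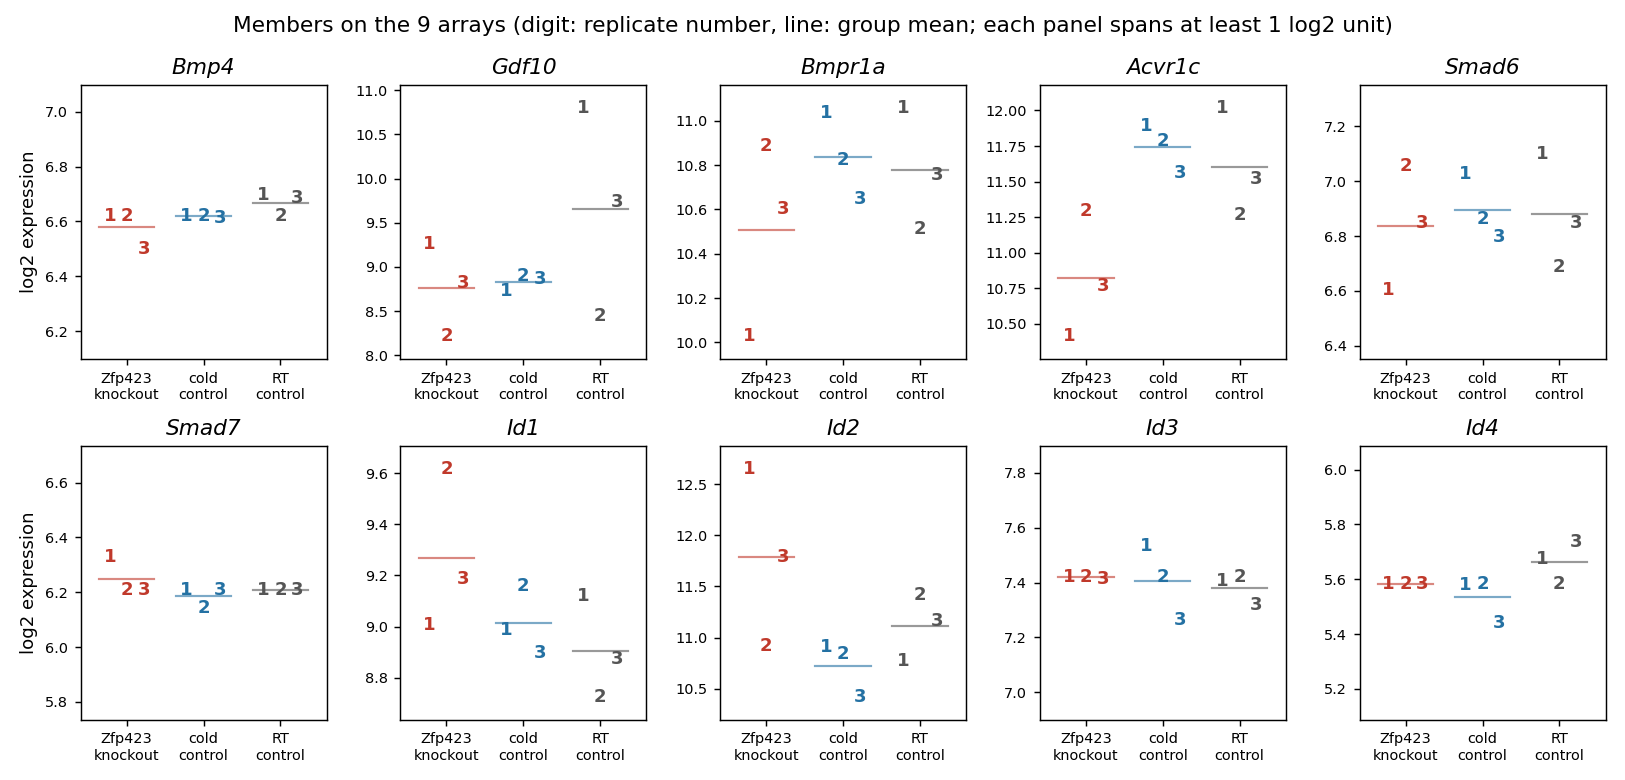
Log2 expression (vertical axis) of each of the 10 pathway genes on the 9 arrays, with knockout, cold control and control from left to right; digits are replicate numbers and lines group means, and panels differ in their axis range but span at least 1 log2 unit. Id2 has its widest spread among the knockouts, from 10.92 to 12.65, and Gdf10 among the controls, from 8.45 to 10.80. The group means of Bmp4, Smad7, Id3 and Id4 lie close together.

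Of the targets, Id2 varied most. It read 12.65, 10.92 and 11.79 in the knockout arrays, 10.91, 10.84 and 10.42 in the cold controls, and 10.77, 11.42 and 11.16 in the controls. Knockouts ran over 1.73 log2 units and spanned most of the control range, and every cold array lay below every knockout array, though cold control replicate 1 was only narrowly below knockout replicate 2. The SD of 0.87 among knockouts was larger than that of 98.0% of all genes tested. Knockout minus control was 0.67 ± 0.41 (SE; 95% interval -0.30 to 1.65; limma adjusted p = 0.468), with 0.24 left when knockout replicate 1 was taken out and 1.11 without knockout replicate 2. Cold minus control was -0.39 ± 0.41 (-1.37 to 0.58; limma adjusted p = 0.616). Cold minus knockout was -1.07 ± 0.41 (-2.04 to -0.09; limma adjusted p = 0.159), and it passed, at -1.50, without knockout replicate 2 (limma adjusted p = 0.031), against -0.63 without knockout replicate 1. In that comparison, 2703 of all 16639 genes passed without knockout replicate 2, against 402 with all arrays.

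Id1, a widely used readout of BMP signalling, read 9.01, 9.62 and 9.19 in the knockout arrays, 8.99, 9.16 and 8.90 in the cold controls, and 9.12, 8.73 and 8.87 in the controls. Knockout replicate 2 was the highest and control replicate 2 the lowest, and the groups overlapped. Knockout minus control was 0.36 ± 0.17 (SE; 95% interval -0.04 to 0.77; limma adjusted p = 0.35), cold minus control 0.11 ± 0.17 (-0.29 to 0.51) and cold minus knockout -0.26 ± 0.17 (-0.66 to 0.15). Without knockout replicate 2, knockout minus control was 0.19 and cold minus knockout -0.08.

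Id3 and Id4 had group means close to each other. Id3 ran from 7.41 to 7.42 in the knockout arrays, from 7.26 to 7.54 in the cold controls and from 7.32 to 7.42 in the controls, and knockout minus control was 0.04 ± 0.07 (SE; 95% interval -0.13 to 0.20; limma adjusted p = 0.829). Its SD of 0.14 among the cold arrays was larger than that of 71.8% of all genes tested. Id4 read 5.58 on all 3 knockout arrays, 5.58, 5.58 and 5.44 in the cold controls, and 5.67, 5.58 and 5.73 in the controls. One identical value stood on 5 of the 9 arrays of Id4. Cold minus control was -0.13 ± 0.06 for Id4 (-0.26 to 0.00; limma adjusted p = 0.25), its largest difference.

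Several of the 10 genes ordered the arrays of a group alike, in orders that were common over the whole array. Among the controls, Id1, Smad6, Bmp4, Bmpr1a, Gdf10 and Acvr1c were highest on replicate 1 and lowest on replicate 2, as were 30.6% of all genes with 3 distinct values, and Id2 had the opposite order, as had 37.1%. Among the knockouts, Id1, Smad6, Bmpr1a and Acvr1c were highest on replicate 2 and lowest on replicate 1, as were 36.8%, and Id2 and Gdf10 had the opposite order, as had 37.1%. Among the cold controls, Id2, Id3, Smad6, Bmpr1a and Acvr1c ran from replicate 1 over 2 to 3 from high to low, as did 28.9% of genes, whereas Id1 and Id4 were highest on replicate 2 and lowest on replicate 3, and Gdf10 highest on replicate 2 and lowest on replicate 1. Several marker lists of cell types had these orders too. The 7 T cell markers averaged 1.52, -0.26 and 0.87 log2 units relative to the control mean in the knockout arrays, -0.99, -1.09 and -1.13 in the cold controls, and -0.38, 0.40 and -0.02 in the controls. Id2 on that scale ranks the knockout and control arrays identically, and so do 2 other lists. The macrophage list (8 markers) averaged 0.61, -1.21 and -0.13 in the knockout arrays, -1.23, -1.15 and -1.07 in the cold controls, and -0.51, 0.54 and -0.03 in the controls. The B cell list (5 markers) averaged 0.43, -0.96 and -0.16 in the knockout arrays, -1.68, -1.11 and -0.66 in the cold controls, and -0.79, 0.77 and 0.02 in the controls. All 7 T cell markers had estimates above 0 in knockout against control, against 56.4% of all genes, and below 0 in cold control against control, against 56.0%. None of the 7 passed in limma in either, and 0 and 4 of 7 were at an unadjusted p under 0.05, against 16.3% and 20.4% of all genes. In cold control against knockout, all 7 had estimates below 0, against 56.6% of all genes. There 7 of 7 were at an unadjusted p under 0.05 in limma, against 26.9%, and none passed (lowest limma adjusted p = 0.0649).

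The 6 markers of progenitors and fibroblasts averaged -0.13, -0.80 and -0.42 in the knockout arrays, -0.66, -0.64 and -0.68 in the cold controls, and 0.31, -0.23 and -0.08 in the controls. Gdf10 ranked the knockout arrays and the control arrays as this list did, and both stood low on the cold arrays. For Acvr1c, the adipocyte list (7 markers) ran from -0.70 to -0.04 in the knockout arrays, from -0.01 to 0.17 in the cold controls and from -0.25 to 0.21 in the controls. The endothelial list (7 markers) ran from -0.67 to 0.17, from 0.07 to 0.39 and from -0.20 to 0.22 in the same groups, and both lists, like Acvr1c and Bmpr1a, were lowest on knockout replicate 1. Among the knockouts the mural cell list (8 markers) and the thermogenic list (10 markers) were also lowest there, at -0.28 and 3.13. Of all genes with 3 distinct values, 36.8% ran from replicate 2 over 3 to 1 in the knockouts. The skeletal muscle list (8 markers) averaged -1.72, 0.24 and -0.46 in the knockout arrays, 0.30, -0.87 and -4.90 in the cold controls, and -0.32, 0.37 and -0.04 in the controls. It too was lowest among the knockouts on replicate 1, and its lowest value of all stood on cold control replicate 3. Every marker of these lists with a row stood above the filter in its mean over the arrays. In cold control against control, 5 of the 7 adipocyte markers had estimates below 0, against 56.0% of all genes. The mean of that list was nevertheless 0.10 in the cold controls. Its markers varied unequally: Lep ranged from 11.24 to 15.52 over the arrays and Fabp4 from 19.89 to 19.92. The highest value over all rows was 19.93, so Fabp4 stood at the top of the scale and may not show changes. The part of these cell types in the differences of Id2, Gdf10, Acvr1c and Bmpr1a was not tested.

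**Figure D3:**
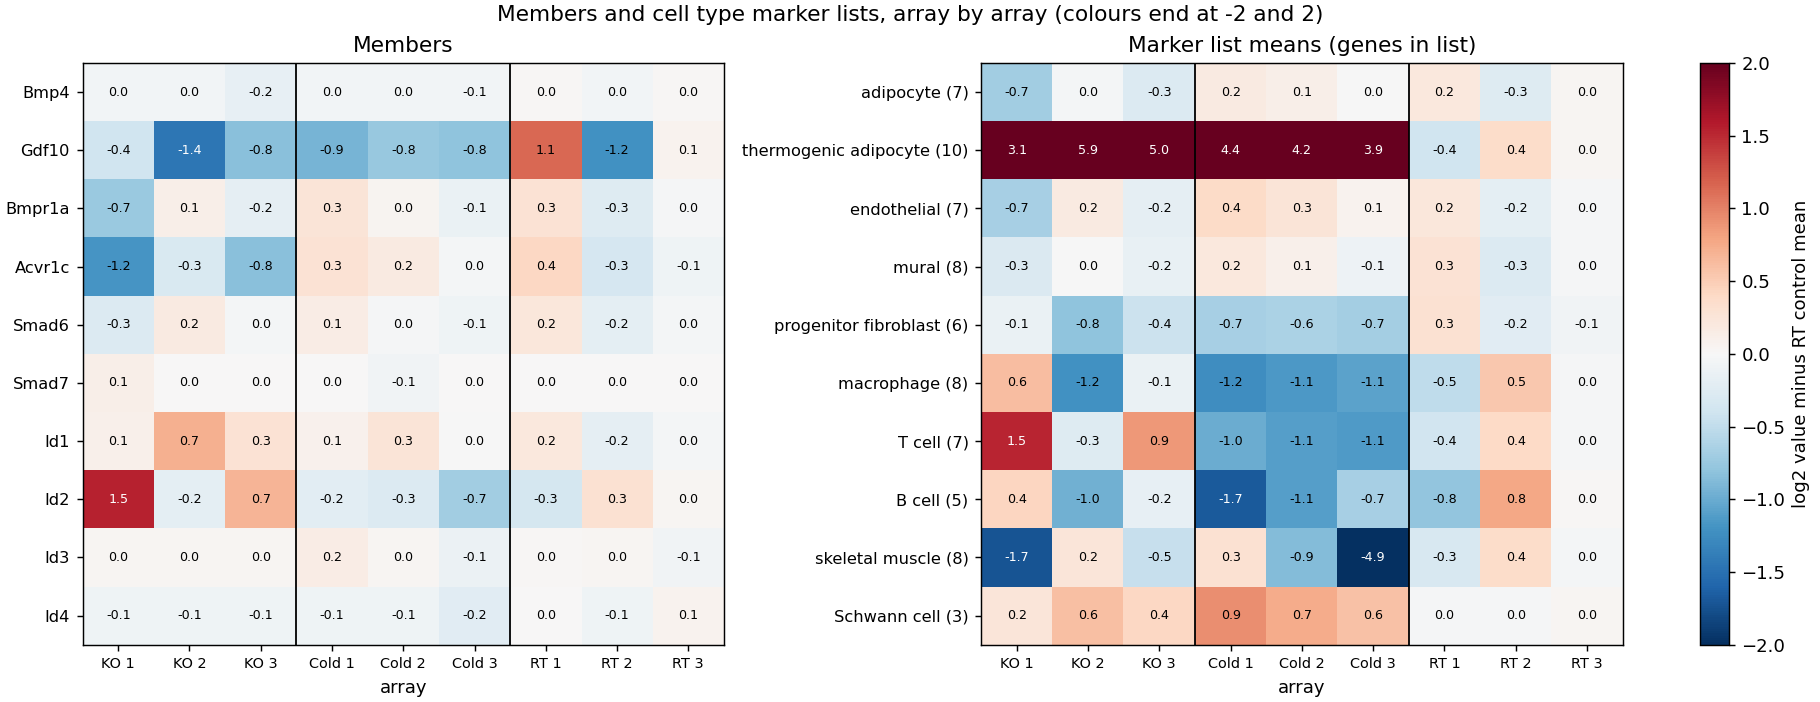
Each cell is a log2 value minus the mean of the 3 room temperature controls (colour scale from -2 to 2), for the pathway genes at left and for the mean of each cell type marker list at right, with the number of genes in brackets; columns are the knockout (KO), cold control (Cold) and control (RT) arrays 1 to 3. Id2 and the T cell list are both highest on knockout replicate 1, and the thermogenic list stands from 3.13 to 5.95 in knockouts and from 3.90 to 4.44 in cold controls.

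Genes with the profile most like that of each variable gene were found by the mean absolute distance over the 9 arrays, after each gene was centred on its own mean. Nearest to Id2, whose own mean deviation was 0.50, were Calhm6, Gadd45b and Thy1, at distances of 0.10, 0.12 and 0.12 log2 units. Nearest to Gdf10, with a mean deviation of 0.56, were Fstl1, Col14a1 and Rasl11b, at 0.24, 0.26 and 0.27. Nearest to Acvr1c, with a mean deviation of 0.40, were Vegfb, Pxdn and Med12l, at 0.06, 0.07 and 0.07. Thy1 encodes a surface protein of T cells and fibroblasts, and Col14a1 a fibrillar-associated collagen.

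The wider pathway, a list of 95 ligands, receptors, Smads, antagonists and targets that includes the 10, had 91 genes with a row and 58 above the filter. None of the 58 passed in limma in any comparison. At an unadjusted p under 0.05, knockout against control had 1 of 58 higher and 9 lower, against 8.94% and 7.31% of all genes. Cold control against control had 2 higher and 4 lower, against 9.36% and 11.0%. Cold control against knockout had 7 higher and 4 lower, against 10.1% and 16.8%. In knockout against control, 41 of 58 estimates lay below 0, against 42.6% of all genes, and 42 of 58 after quantile normalization or median centring, against 51.9% and 53.7%. The median was -0.07, against 0.02 over all genes. In cold control against control the median was -0.02, against -0.02 over all genes, and turned to 0.01 after quantile normalization and 0.02 after median centring. In cold control against knockout it was 0.06, against -0.03 over all genes, and 0.10 after quantile normalization and 0.13 after median centring, against 0.03 and 0.05 over all genes. Without the 10 genes, 11 of the other 48 had knockout and control arrays that did not overlap, against 17.4% of all genes, 9 of 48 in cold against control, against 32.9%, and 12 of 48 in cold against knockout, against 32.5%.

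**Figure D4:**
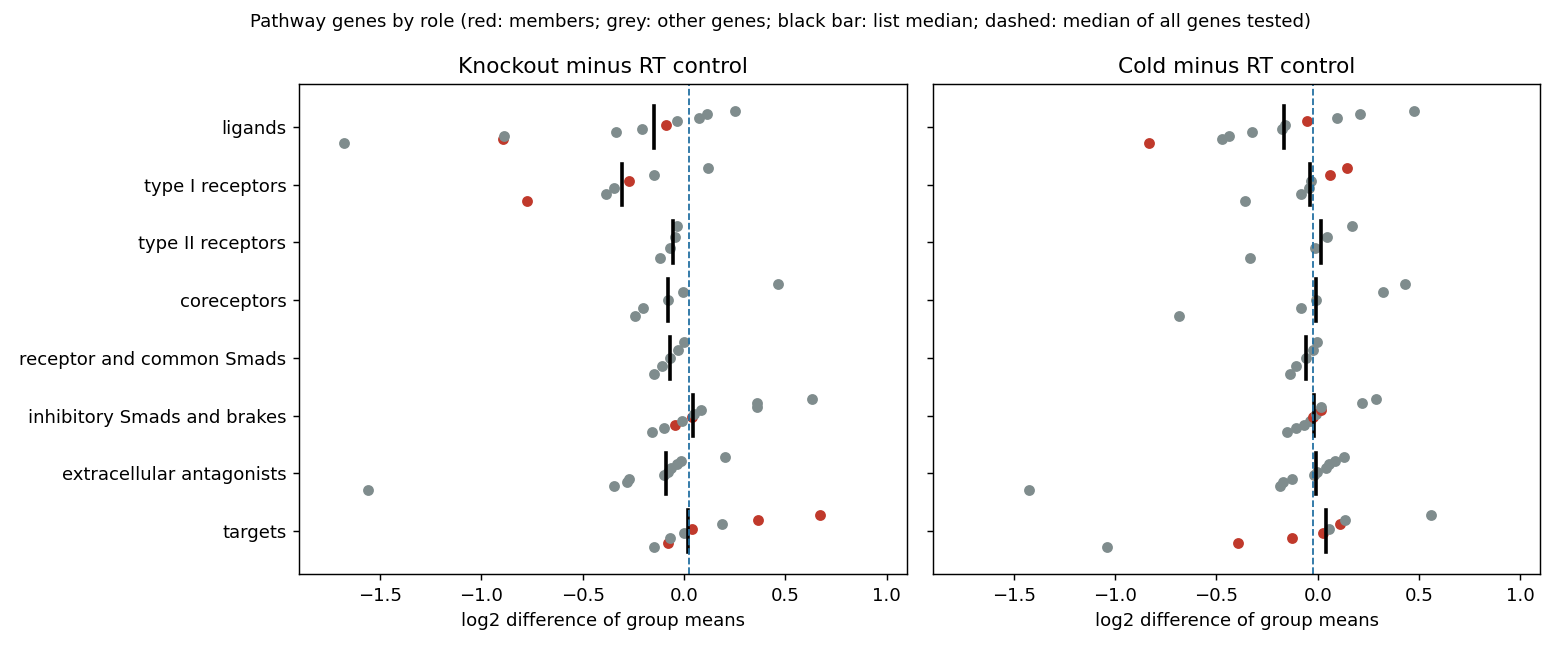
Difference of group means in log2 units (horizontal axis) for the 58 tested pathway genes, in knockout minus control (left) and cold control minus control (right); red points are the 10 chosen genes, grey points the other genes, black bars list medians and the dashed line the median of all genes tested. Type I receptors centre at -0.31 in knockouts and at -0.04 in cold controls (0.01 after quantile normalization), and Bmp3 and Chrdl1 reach -1.68 and -1.56 in knockouts.

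Of 10 ligands tested, none passed. Bmp3, the closest relative of Gdf10 among the BMPs, read 6.18, 6.90 and 6.77 in the knockout arrays, 8.17, 8.03 and 7.36 in the cold controls, and 9.32, 7.27 and 8.29 in the controls. Every knockout array lay below every other array, and knockout minus control was -1.68 ± 0.51 (SE; 95% interval -2.87 to -0.49; limma adjusted p = 0.179). Inhbb, the subunit of activin B, read 9.29, 8.93 and 9.09 in the knockout arrays, 9.56, 9.68 and 9.76 in the cold controls, and 10.38, 9.77 and 9.82 in the controls. The 3 groups did not overlap, with knockout minus control at -0.89 ± 0.17 (-1.29 to -0.48; limma adjusted p = 0.0798) and cold minus control at -0.33 ± 0.17 (limma adjusted p = 0.321). Leaving out knockout replicate 1 took the knockout difference past the threshold (limma adjusted p = 0.0445). The calls over all 16639 genes then rose from 63 to 834 in knockout against control. Ligands under the filter, which have no test here, included Bmp2, Bmp7, Bmp8b, Inhba and Mstn.

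Of 6 type I receptors, 5 had estimates below 0 in knockout against control, with a median of -0.31, against 42.6% of all genes below 0. After quantile normalization and median centring it was again 5 of 6, against 51.9% and 53.7% of all genes. At an unadjusted p under 0.05 in limma there were 3 of 6, against 16.3% of all genes. Besides Acvr1c these were Acvr1b, the activin receptor ALK4, at -0.38 ± 0.14 (SE; limma adjusted p = 0.252), and Acvr1, the BMP receptor ALK2, at -0.34 ± 0.11 (limma adjusted p = 0.195). Acvr1b read 7.89, 7.94 and 8.05 in the knockout arrays, 8.15, 7.99 and 7.81 in the cold controls, and 8.64, 8.13 and 8.26 in the controls, so knockouts lay below all controls. Its cold minus control difference, -0.36 ± 0.14 (limma adjusted p = 0.226), was about as large, and cold minus knockout was 0.02 ± 0.14. Without control replicate 1 the differences against control were -0.23 in knockouts and -0.21 in cold controls. In cold control against control the median of the 6 was -0.04, and 0.01 after quantile normalization. Type II receptors had estimates from -0.12 to -0.03 in knockouts, with Bmpr2, the main BMP receptor of this class, at -0.12 ± 0.21, and Tgfbr2, the receptor for TGF-beta, at -0.03 ± 0.20 against control. In cold controls Tgfbr2 stood at -0.33 ± 0.20 (limma adjusted p = 0.381). Among coreceptors, Eng (endoglin, prominent in endothelium) stood at 0.46 ± 0.36 in knockouts and 0.43 ± 0.36 in cold controls relative to control, and Hjv (hemojuvelin, a BMP coreceptor of muscle and liver) at -0.20 ± 0.52 and -0.68 ± 0.52. Without knockout replicate 2 the knockout difference of Eng was 0.09, and without knockout replicate 1 it was 0.84. Hjv was lowest, at 5.67, on cold control replicate 3, the array on which the muscle list stood at -4.90.

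All 5 receptor-regulated and common Smads tested had estimates below 0 in knockouts against control, against 42.6% of all genes. So had all 5 in cold controls, against 56.0%, though only 3 of 5 after quantile normalization or median centring. The knockout estimates ran from -0.15 for Smad5 to -0.0019 for Smad3. After these scalings, 51.9% and 53.7% of all genes lay below 0 in knockout against control. In knockout against control and in cold control against control, 0 of 5 passed the threshold, against 0.379% and 1.56% of all genes. At an unadjusted p under 0.05 in limma it was again 0 of 5 in both, against 16.3% and 20.4%. Smad5 stood at -0.15 ± 0.06 in knockouts (SE; limma adjusted p = 0.317), with no overlap with controls, and Smad4 at -0.07 ± 0.06 (limma adjusted p = 0.64). Of the 10 inhibitory Smads and other brakes, 1 was at an unadjusted p under 0.05 in knockout against control, against 16.3% of all genes. It was Skil, which encodes the Smad corepressor SnoN. Skil, named after its values were seen, read 9.39, 9.64 and 9.68 in the knockout arrays, 9.30, 9.25 and 9.14 in the cold controls, and 9.09, 9.30 and 9.25 in the controls. All knockout arrays lay above all others, at 0.36 ± 0.09 over control (limma adjusted p = 0.135). Pmepa1, a TGF-beta-induced inhibitor of Smad signalling, and Nedd4l, a ubiquitin ligase for Smads, differed by 0.63 ± 0.41 and 0.36 ± 0.24 between knockout and control (limma adjusted p = 0.491 and 0.498). Both rested on knockout replicate 2, without which they stood at 0.25 for Pmepa1 and 0.09 for Nedd4l.

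Among 10 extracellular antagonists, 9 had estimates below 0 in knockout against control, against 42.6% of all genes (53.7% after median centring). Chrdl1, a secreted chordin-like protein that binds BMPs, came closest to the threshold of all pathway genes in both comparisons against control. It read 9.50, 8.99 and 9.29 in the knockout arrays, 9.55, 9.42 and 9.23 in the cold controls, and 11.41, 10.22 and 10.83 in the controls. Knockout and cold arrays all lay below the lowest control, at -1.56 ± 0.29 (SE; 95% interval -2.24 to -0.89; limma adjusted p = 0.0715) and -1.42 ± 0.29 (-2.10 to -0.75; limma adjusted p = 0.0651), and cold minus knockout was 0.14 ± 0.29 (limma adjusted p = 0.791). Control replicate 2 was its lowest control array, and without it both differences against control passed; the first also passed without knockout replicate 1 and the second without knockout replicate 2. In knockout against control, 63 calls over all genes became 371 without control replicate 2 and 834 without knockout replicate 1. In cold against control, 260 calls became 123 without control replicate 2 and 983 without knockout replicate 2. Fst (follistatin, which binds activins) was named after its values were seen and stood at -0.28 ± 0.08 in knockouts and -0.19 ± 0.08 in cold controls (limma adjusted p = 0.142 and 0.232). Bmper, a secreted regulator of BMPs, stood at -0.27 ± 0.16 and 0.08 ± 0.16 in these comparisons (limma adjusted p = 0.443 and 0.796), and the first was -0.09 without control replicate 1.

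Of 8 targets tested, the 4 beside the Id genes were Atoh8, Hey1, Ccn2 and Tgfbi. Hey1, a transcriptional repressor that BMP and Notch signals induce, read 7.37, 8.13 and 7.89 in the knockout arrays, 8.33, 8.37 and 8.36 in the cold controls, and 8.05, 7.56 and 7.77 in the controls. Cold arrays lay above all others, with cold minus control at 0.56 ± 0.20 (SE; limma adjusted p = 0.192) and knockout minus control at 0.00 ± 0.20. Tgfbi, a matrix protein named for its induction by TGF-beta, read 12.68, 11.18 and 11.94 in the knockout arrays, 10.82, 10.91 and 11.38 in the cold controls, and 11.73, 12.43 and 12.07 in the controls. Cold minus control was -1.04 ± 0.38 (limma adjusted p = 0.197), and the knockout arrays ran over 1.50 log2 units, in the order of Id2.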

How the data were processed

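Total RNA from inguinal fat was measured on 9 Affymetrix arrays, 3 per group, with groups taken from the labels. The log2 values are those the authors deposited, made with Affymetrix Expression Console per the submitters' processing notes. Not given in the sources used here are its version, the method of summarisation and normalization, and the build. The log2 scale was inferred from the range, 1.84 to 19.93 over 72688 rows. No counts or detection calls come with the values, and the precision is limited by the number of arrays.

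Gene symbols came from the archive's platform annotation: 30604 rows had 1 symbol, 2146 had several and 39938 had none. Rows with several symbols were not named, and 827 symbols were updated through the Entrez ID with the RefSeq table of GRCm38.p6. Rows with a mean at or above the median row mean (5.31) were kept, and the brightest row per gene, which left 16639 genes. These were fitted with limma 3.58.1 under R 4.3.3 (lmFit, then eBayes without trend or robust options, 3 group means, 6 residual and 1.23 prior degrees of freedom), tested two-sided and adjusted by Benjamini-Hochberg over all genes, with a threshold of 0.05. Intervals are 95% intervals from that fit. Exact permutations of 3 against 3 arrays cannot give a two-sided p below 0.1. The fit was tested on simulated data.

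The genes, lists and tests were chosen with earlier results of these data known. Named are the 10 pathway genes, Zfp423, up to 2 genes of each role list with the largest difference (as none passed), and the 3 genes nearest in profile to each of the 10 with a difference of at least 0.5; marker genes are given as values. Fst and Skil were added after their values were seen.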

Additional observations from a re-analysis of the deposited data

How the results depend on the processing

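With array weights, 8 of the 10 genes passed in knockout against control, 6 in cold against control and 4 in cold against knockout. Of the 58 pathway genes, 43, 27 and 30 passed in the same order. Over all 16639 genes, 11755, 8946 and 9904 were called in that order. In the F test 8 of the 10 passed, against 13162 of all 16639 genes. The weight of knockout replicate 3 reached 1659 in this setting, and the estimation stopped before it converged. In the other alternatives the number of the 10 genes that passed was 0, apart from leaving out single arrays, which gave 0 to 2 in cold against knockout and 0 to 1 in the F test. Leaving out single arrays gave 0 to 3, 0 to 1 and 0 to 7 pathway genes in the same order of comparisons. The calls over all 16639 genes then ran from 0 to 834, from 23 to 983 and from 14 to 2703. The 75th percentile filter gave 1 pathway gene in cold against control (Chrdl1) and median centring gave 1 in cold against knockout (Dand5). The cause was not tested. Counts over all genes ranged widely: the 63, 260 and 402 calls became 0, 1347 and 362 when 2 groups were fitted alone, 144, 315 and 705 with the 75th percentile filter, 16, 131 and 218 without a filter, 94, 403 and 470 after quantile normalization, and 37, 239 and 318 with trend and robust moderation.

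The deviations of same-numbered arrays from their group means correlated at r from -0.46 to 0.09 across genes. Many genes share 1 order of the arrays within a group, so these values cannot tell whether the numbers pair the samples. The labels do not say that they do. With a replicate block in the fit, 1, 42 and 36 genes were called, and 0 of the 10 genes and 0 of the 58 in each comparison. At an unadjusted p under 0.05 in limma stood 1, 0 and 1 of the 10 and 10, 4 and 5 of the 58. Over all 16639 genes, 2330, 2655 and 3535 were at that level.

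Of 558 alternative differences of the 10 genes, 23 turned in sign, and the largest such difference was 0.14 as reported. After quantile normalization, knockout against control stood at -0.034 for Hey1, cold against control stood at 0.014 for Smad7 and 0.0013 for Acvr1 and cold against knockout stood at 0.056 for Id3, 0.050 for Eng and 0.022 for Smad4. After median centring, knockout against control stood at -0.035 for Hey1, cold against control stood at 0.019 for Smad7 and cold against knockout stood at 0.065 for Id3, 0.030 for Id4, 0.016 for Smad7, 0.044 for Eng and 0.0071 for Smad4. With array weights, knockout against control stood at 0.042 for Tgfbr2, cold against control stood at 0.017 for Smad5 and -0.0080 for Skil and cold against knockout stood at 0.00057 for Id3 and -0.063 for Acvr1b. Without the 3 middle arrays, knockout against control stood at -0.057 for Hey1, cold against control stood at -0.014 for Id3 and -0.0020 for Bmper and cold against knockout stood at -0.0026 for Bmp4.

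Differences that turned when single arrays were left out ran, in knockout against control, from -0.15 to 0.074 for Smad6, -0.22 to 0.19 for Tgfbr2, -0.32 to 0.060 for Bmpr2, -0.64 to 0.21 for Hjv, -0.52 to 0.23 for Tgfbi and -0.16 to 0.22 for Hey1. In cold against control they ran from -0.039 to 0.096 for Id3, -0.079 to 0.13 for Smad6, -0.072 to 0.20 for Bmpr1a, -0.024 to 0.35 for Acvr1c, -0.95 to 0.074 for Bmp3, -0.11 to 0.033 for Acvr1, -0.032 to 0.35 for Bmpr2, -0.094 to 0.015 for Smad5, -0.0022 to 0.49 for Pmepa1, -0.058 to 0.26 for Bmper and -0.044 to 0.063 for Skil. In cold against knockout they ran from -0.076 to 0.059 for Id3, -0.057 to 0.17 for Smad6, -0.0014 to 0.060 for Bmp4, -0.21 to 0.31 for Gdf10, -0.060 to 0.11 for Acvr1b, -0.40 to 0.34 for Eng, -0.73 to 0.034 for Pmepa1 and -0.40 to 0.13 for Nedd4l. Rows near the filter, such as Id4, and rows with identical values on most arrays, such as Smad7, cannot show small changes.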
